A study of Danio rerio with 6 samples.

Results

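The genes described here are zebrafish genes for the structure and transport machinery of cilia, followed in RNA from whole embryos at the 10-somite stage. They are the gene IDs whose best protein match in the authors' annotation contains at least 1 of 6 terms: axonemal, intraflagellar transport, tektin, radial spoke, Bardet-Biedl or dynein assembly factor. The rule matched 51 of 24832 gene IDs, and 40 of these had 10 or more reads over both RNA libraries, out of 17810 IDs that did so in the whole table. All 18 matched transport genes (intraflagellar transport, IFT, and Bardet-Biedl syndrome, BBS) passed that minimum, and 22 of the 33 matched genes of the motile apparatus did (axonemal dyneins, dynein assembly factors, radial spokes and tektins).

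The dnmt1 morphant group was 1 RNA library of whole embryos carrying a morpholino, an antisense oligonucleotide, against dnmt1, which encodes the maintenance DNA methyltransferase. The control group was 1 RNA library of embryos that the labels call normal, at the same stage. Neither the strain, nor how many embryos were pooled, nor whether the controls were injected is stated in the labels. The series also holds 4 methylated-DNA peak lists at 80% epiboly, which were not analysed here because they name no genes and no genome build.

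Cilia are hair-like extensions built on a microtubule core, the axoneme. Motile cilia beat because dynein arms, which are preassembled in the cytoplasm and then docked on the axoneme, slide its microtubule doublets, while radial spokes and tektins organise and stabilise the doublets. Nearly all cilia, motile or not, are built by IFT trains: complex B runs with kinesin towards the tip, complex A with dynein back to the base, and the BBSome carries membrane proteins. At early somite stages of the zebrafish, motile cilia line Kupffer's vesicle, the organ of laterality, and others form in the pronephros, the floor plate and the ear. At this stage few cells of the embryo bear motile cilia, while primary cilia are found in many tissues.

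The morphant library held 10.05 and the control library 9.9 megareads assigned to genes. The dnmt1 transcript itself had 3194 reads in the morphant library and 2423 in the control library, a ratio of 1.30 (interval 1.23 to 1.37), and since a morpholino can block translation alone this level does not check the knockdown. With 1 library per group no test was run, and none of the differences below can be set against a spread between replicates. Ratios are of CPM, the reads of a gene scaled to its library's total, in the morphant over the control library, and every interval is a 95% exact (Clopper-Pearson) one that covers counting error only, since reads are not independent molecules. Log2 ratios were computed with a prior count of 2, and a gene was called higher or lower where that value passed 2-fold. In whole embryos, fewer cells of a type and less RNA per cell cannot be told apart.

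Transport genes were read at higher levels than genes of the motile apparatus in both libraries. In RPKM, reads scaled by gene length and library total, the median level of the 18 transport genes was 5.44 RPKM in the morphant and 5.57 RPKM in the control library. For the 22 motile genes it was 0.629 RPKM in the morphant and 0.777 RPKM in the control library, a transport-to-motile ratio of median levels of 8.65 in the morphant and 7.17 in the control. The median of all 17810 genes was 5.79 RPKM (morphant) and 5.57 RPKM (control), and the median rank of the transport genes among them was percentile 48.5 in the morphant library, against 11.5 there for the motile genes. The groups overlapped in part. Motile genes ran between 0.0880 and 11.9 RPKM in the morphant and between 0.0639 and 11.8 RPKM in the control, against 2.0 to 20.2 RPKM and 2.03 to 18.5 RPKM for transport genes. In each library 16 of 22 motile genes lay below every transport gene, and 14 motile genes but 0 transport genes were under 1 RPKM.

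**Figure D1:**
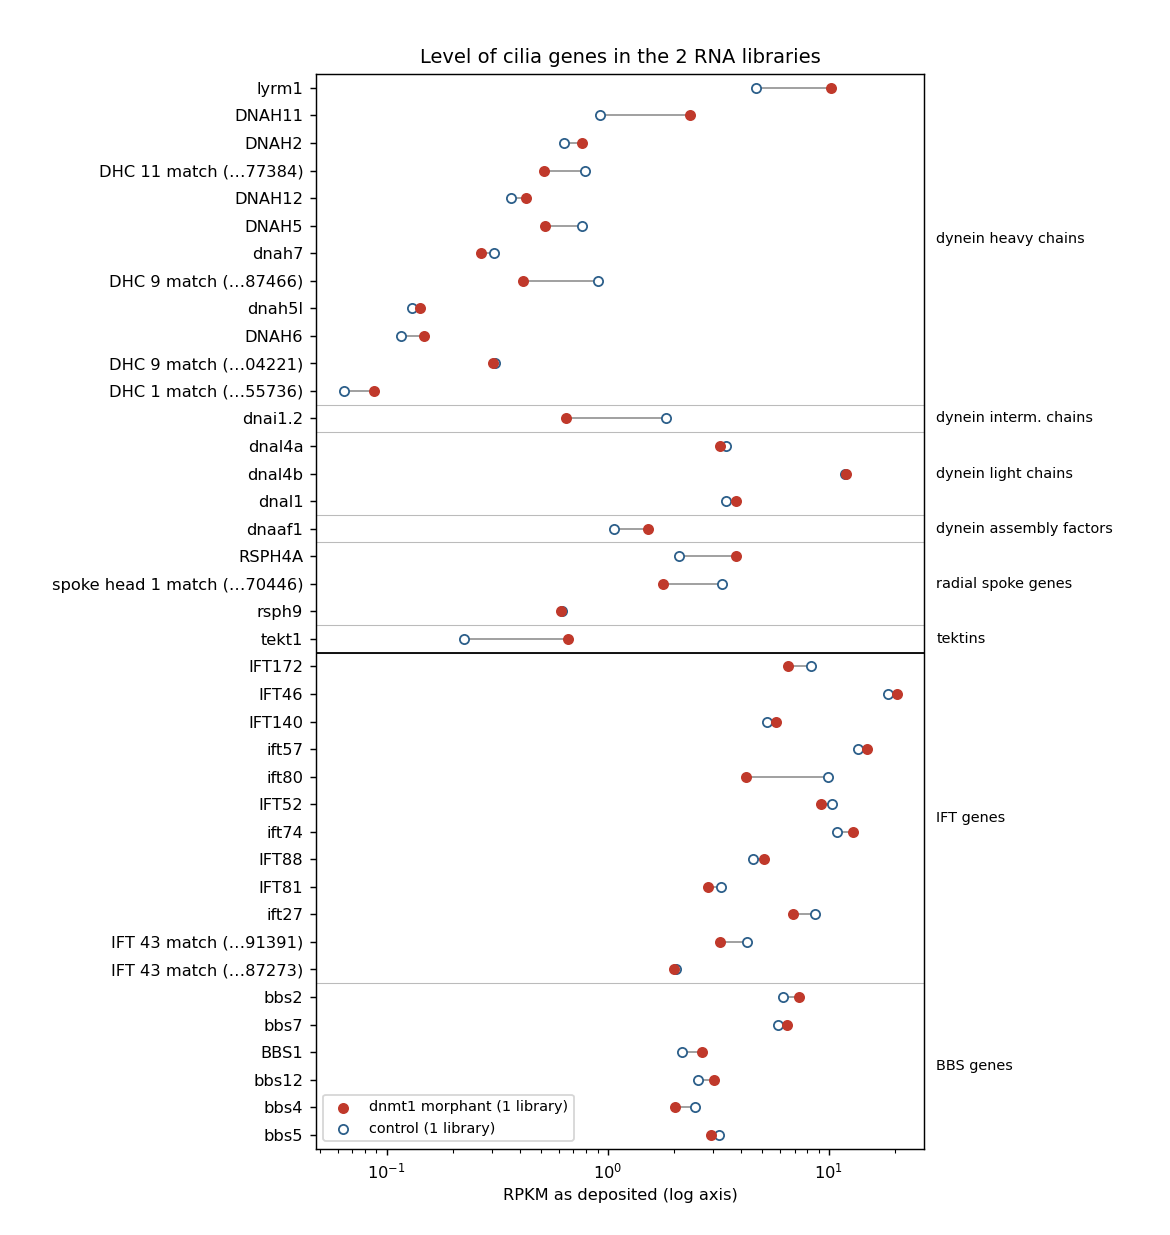
Level of the cilia genes with 10 or more reads, with a row per gene shown, as the deposited RPKM (log axis) in the dnmt1 morphant (filled) and control (open) library; the black line separates motile genes (above) from transport genes (below), DHC stands for dynein heavy chain, and a gene with no symbol is shown by its protein match and the end of its ID. Most motile genes lie under 1 RPKM and every transport gene lies above it, while the distance between the libraries is small for most genes.

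Of the 40 genes, 3 were called higher in the morphant library and 3 lower, and among all 17810 genes with 10 or more reads 3.8% were called higher and 1.78% lower. The median log2 ratio was 0.13 for the motile group (range -1.39 to 1.32) and 0.05 for the transport group (range -1.22 to 0.30), beside 0.03 for all genes. In the motile group 13 of 22 genes lay above 0, in the transport group 9 of 18, and among all genes 54.2%. The summed reads of the motile group were 1291 in the morphant and 1085 in the control library, a ratio of 1.17 (1.08 to 1.27). Those of the transport group were 2571 in the morphant and 2670 in the control library, a ratio of 0.948 (0.898 to 1.001).

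Each sum moved with 1 gene. Without lyrm1, whose place among dyneins is in doubt for the reason given below, the motile sum was 1048 morphant reads against 976 control reads (ratio 1.06, 0.968 to 1.15). Without ift80 the transport sum was 2452 morphant reads against 2395 control reads (ratio 1.01, 0.952 to 1.07). The transport sum also moved with the rule's wording: with 15 further subunits of the same machinery, given below, it was 4915 morphant against 5342 control reads (ratio 0.906, 0.871 to 0.942). Much of that move came from ttc21b, with 323 morphant and 636 control reads. In this larger set the median log2 ratio was 0.10, and 18 of 33 genes lay above 0, beside 54.2% of all genes. The difference between the group medians, 0.08 on the log2 scale, changed sign with a minimum of 50 reads (-0.05), so no direction is given for it.

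**Figure D2:**
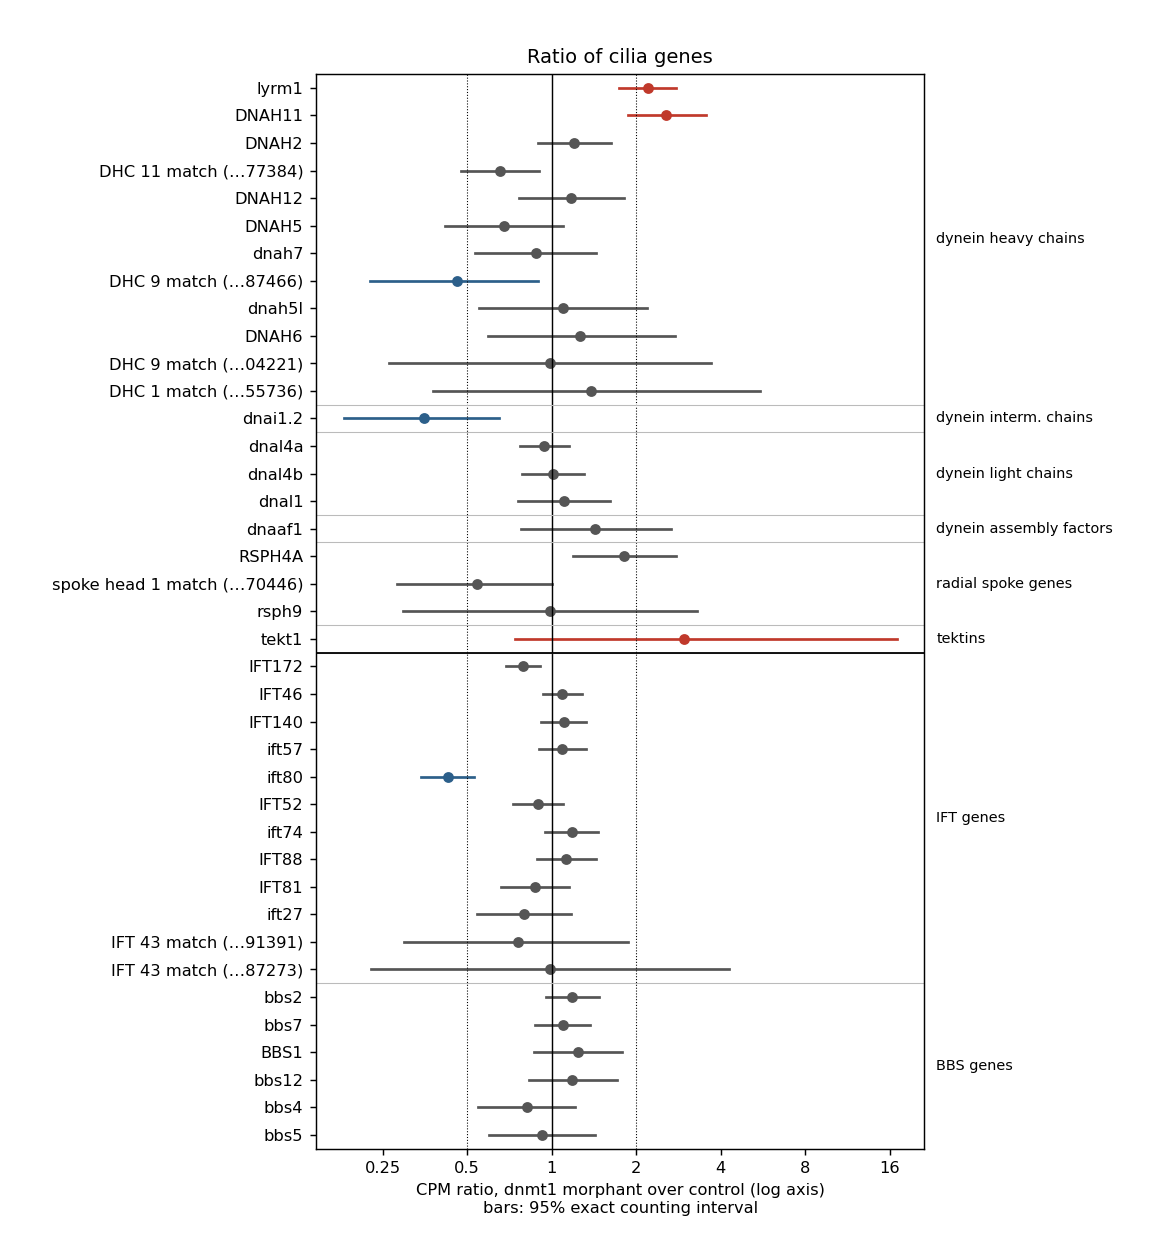
CPM ratio of the same cilia genes, dnmt1 morphant over control (log axis), with the 95% exact counting interval as a bar; red genes were called higher and blue genes lower in the morphant, and dotted lines mark 2-fold. The intervals of most genes span 1, and ift80 is the transport gene that stands apart.

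Dynein heavy chains, the motors of the axonemal arms, made up 12 of the 22 motile genes. Their listed lengths ran between 1964 and 14004 bases. Of the 12, 2 were called higher and 1 lower, beside 3.8% and 1.78% of all genes with 10 or more reads. DNAH11 (ENSDARG00000094282), a heavy chain of the outer arm in mammals, had 148 reads in the morphant and 57 in the control library, or 2.36 RPKM against 0.924 RPKM. That is a ratio of 2.56 (1.87 to 3.53) and a log2 ratio of 1.32. A further ID without a symbol, ENSDARG00000077384, has a fish dynein heavy chain 11 as its best match and lay on the other side of 1, with 68 morphant and 102 control reads (ratio 0.656, 0.476 to 0.901). Together both IDs held 216 morphant and 159 control reads, a ratio of 1.34 (1.08 to 1.65).

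The reads of DNAH11 lay on a small part of the gene. Every gene with exactly 1 read was listed with 49 covered bases, 1723 genes in the morphant and 1802 in the control library, so each read covered 49 bases. If 148 and 57 such reads had fallen evenly on the 6229 bases of DNAH11, they would have covered 68.8% in the morphant and 36.1% in the control library. The deposited covered share was 24.4% in the morphant and 18.1% in the control. Among genes with 0.5 to 2 times its reads, the observed share divided by the even one lay at percentile 2.1 in the morphant and 7.9 in the control library. For comparison DNAH2, an inner arm heavy chain with 104 morphant and 85 control reads, covered 26.6% and 24.4% of its 13521 bases, where even reads would have covered 31.4% (morphant) and 26.5% (control).

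The other heavy chain ID called higher is in doubt as a dynein. ENSDARG00000026281 had 243 reads in the morphant and 109 in the control library (10.3 RPKM against 4.67 RPKM, ratio 2.19, 1.74 to 2.78). Its symbol in the ID table is lyrm1, a gene of the mitochondrial LYR-motif family, while its best match in the authors' table is dynein heavy chain 3. The same protein is the best match of DNAH3 (ENSDARG00000068468), which had 3 morphant reads and 2 control reads. The level listed for lyrm1 was the highest of the 12 heavy chain IDs in both libraries, and its reads too were uneven, covering 66.0% in the morphant and 54.3% in the control where even reads would have covered 99.4% and 89.6%. Without lyrm1, the heavy chains held 499 morphant and 441 control reads, a ratio of 1.11 (0.978 to 1.27), and without DNAH11 as well 351 and 384 reads, a ratio of 0.900 (0.776 to 1.04).

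**Figure D3:**
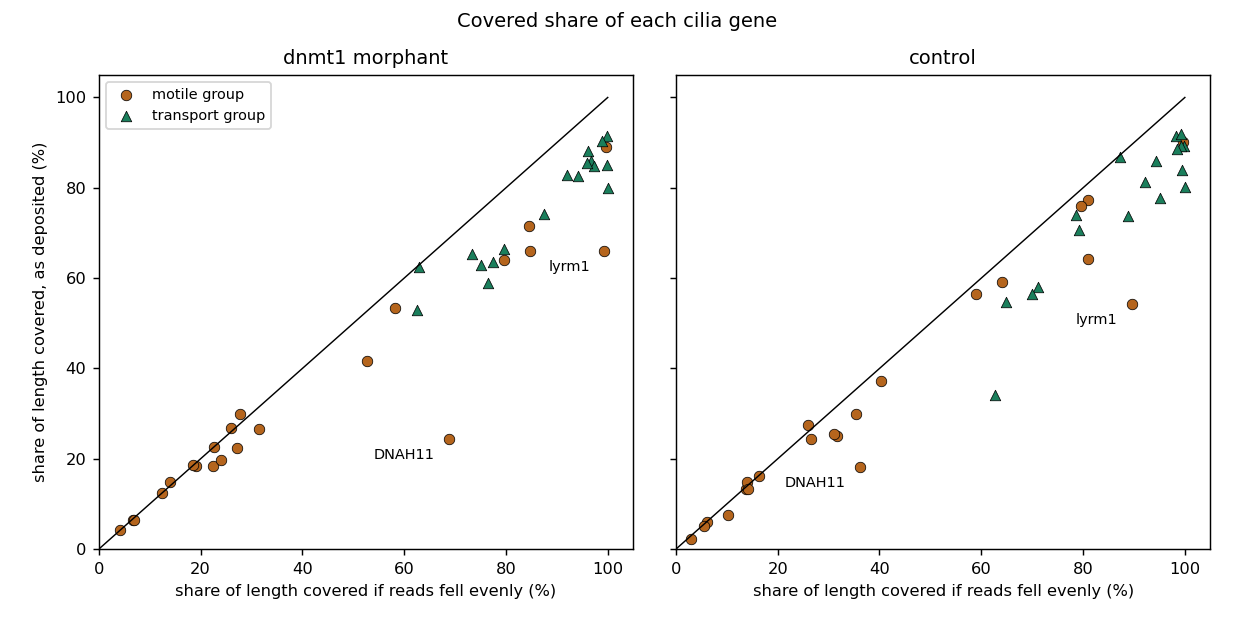
Share of each gene's listed length covered by reads, as deposited (y axis), against the share that the same number of 49-base reads would cover if they fell evenly (x axis), in the dnmt1 morphant (left) and control (right) library. Most cilia genes lie near the diagonal. DNAH11 and lyrm1, both called higher in the morphant, lie below it in both libraries, and farthest of all members in the morphant library. The distance is not particular to called genes. In the control library IFT46 and the short IFT43 ID ENSDARG00000087273 (34.1% covered, 62.6% if even), neither called, lie farther below it than DNAH11 (18.1%, 36.1%).

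Most other heavy chain IDs had few reads and intervals that span 1. DNAH2 had 0.765 RPKM in the morphant and 0.635 RPKM in the control library (ratio 1.20, 0.896 to 1.62). DNAH5 (ENSDARG00000087373), an outer arm heavy chain, had 31 morphant and 45 control reads (ratio 0.678, 0.415 to 1.10), and dnah5l, a second gene whose best match is a heavy chain 5, had 20 and 18 (ratio 1.09, 0.549 to 2.19). An ID with dynein heavy chain 9 as its best match, ENSDARG00000087466, was called lower, with 14 morphant reads against 30 control reads (ratio 0.459, 0.225 to 0.894, log2 ratio -1.02). It lies just past the 2-fold line and under 50 reads, and of all genes with so few reads 5.74% were called lower and 10.8% higher. Inner arm heavy chains were DNAH12 with 50 morphant and 42 control reads, dnah7 with 33 and 37, and DNAH6 with 18 and 14, each with an interval that spans 1. ENSDARG00000055736, which matches heavy chain 1, had the lowest level of all members, 0.0880 RPKM in the morphant and 0.0639 RPKM in the control, and ENSDARG00000004221, a further heavy chain 9 match, had 6 reads in each library. Some of the matches are to partial proteins and the family shares conserved stretches, so reads could be split among its IDs, and the ratio of a single ID is uncertain in that respect.

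The 1 matched intermediate chain gene with 10 or more reads had the lowest ratio of all 40 genes. dnai1.2 (ENSDARG00000038788), whose product is a subunit of the outer dynein arm, had 15 reads in the morphant against 42 in the control library, or 0.645 RPKM against 1.84 RPKM. The ratio was 0.352 (0.181 to 0.647) and the log2 ratio -1.39. Reads covered 22.3% of its length in the morphant and 56.4% in the control, close to the 27.2% and 58.9% that even reads would give. Of all genes with at least 50 but under 200 reads, where dnai1.2 falls with 57, 1.26% were called lower and 3.24% higher. A second ID matching the same chain, ENSDARG00000079002, had 4 morphant reads and 3 control reads, too few to show a difference, and was just outside the 10-read minimum.

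The 3 most read light chain genes lay near 1 in ratio, and dnal4b had the highest level of the motile group. It had 126 morphant and 123 control reads, 11.9 RPKM against 11.8 RPKM (ratio 1.01, 0.780 to 1.30). Its paralog dnal4a had 197 morphant and 206 control reads (3.22 RPKM against 3.42 RPKM, ratio 0.942, 0.771 to 1.15), and dnal1, a light chain of the outer arm, 63 and 56 (ratio 1.11, 0.760 to 1.62). Summed over the 4 light chain genes the ratio was 1.01 (0.874 to 1.16). The counting intervals of dnai1.2 and dnal1, both of the outer arm, do not overlap. A further intermediate chain gene that the rule missed, dnai2b, had 13 morphant and 21 control reads (ratio 0.609, 0.280 to 1.28). Its interval overlaps both. By symbol, the rule also missed the heavy chain gene DNAH10, with 23 morphant and 15 control reads (ratio 1.51, 0.755 to 3.11). It missed the assembly factor gene DNAAF11 too, with 9 and 17 (0.521, 0.205 to 1.24). The motile sums leave out such genes.

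Radial spoke head genes lay on both sides of 1. RSPH4A had 68 morphant and 37 control reads, 3.81 RPKM against 2.11 RPKM, a ratio of 1.81 (1.20 to 2.78) that stays under 2-fold. The ID matching radial spoke head 1, ENSDARG00000070446, had 17 morphant and 31 control reads (ratio 0.540, 0.280 to 1.01). rsph9 had 7 reads in each library. The 3 genes encode parts of the same spoke head, and their sum was 92 morphant against 75 control reads (ratio 1.21, 0.881 to 1.66).

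The assembly factor and tektin genes had few reads. dnaaf1, needed to preassemble dynein arms in the cytoplasm, had 29 morphant and 20 control reads (ratio 1.43, 0.780 to 2.66). tekt1, a filament protein of the doublet wall, had 9 morphant and 3 control reads and was called higher (ratio 2.95), but its interval of 0.737 to 17.0 spans 1. It passed the minimum with 12 reads, most of them from the morphant library. Below the minimum were 11 motile IDs: 5 heavy chain IDs, 1 intermediate chain ID, dnaaf3, RSPH3, rsph10b, tekt3 and TEKT2. Their totals ran up to 7 reads. TEKT2 had no read in either library, which allows up to 0.298 CPM in the morphant and 0.303 CPM in the control. Differences in these genes were not detectable at this depth.

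Among the 12 matched IFT genes ift80 was the 1 past 1.5-fold, and it was lower. Among all genes with 10 or more reads 10.4% were 1.5-fold higher and 6.01% lower. ift80 (ENSDARG00000038879), a complex B subunit, had 119 reads in the morphant against 275 in the control library, or 4.21 RPKM against 9.88 RPKM. The ratio was 0.426 (0.341 to 0.530) and the log2 ratio -1.22. Its reads covered 74.1% of the gene in the morphant and 91.8% in the control, where even reads would have covered 87.4% and 99.2%. Of the 9440 genes with 200 or more reads, 0.233% were called lower and 0.911% higher.

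The other matched complex B genes lay within 1.5-fold of the control. All had 50 or more reads, and among all genes of that depth 6.11% were 1.5-fold higher and 3.24% lower. IFT172, the most read of the 40 genes and the largest subunit of complex B, had 365 morphant and 456 control reads (6.56 RPKM against 8.32 RPKM, ratio 0.788, 0.685 to 0.906). Its interval lies below 1 but also above that of ift80. IFT46 had 324 morphant and 292 control reads and, at 20.2 RPKM against 18.5 RPKM, the highest level of all members (ratio 1.09, 0.930 to 1.28). ift57 had 225 and 203 reads, IFT52 182 and 200, IFT88, the gene of the mouse polycystic kidney mutant, 151 and 132, and IFT81 99 and 112, in morphant and control. The small GTPase gene ift27 had 51 morphant and 63 control reads (ratio 0.797, 0.540 to 1.17). ift74, whose product pairs with IFT81 to bind tubulin, had the highest ratio of the matched IFT genes, with 189 morphant and 158 control reads (1.18, 0.948 to 1.46). Summed over the 9 matched complex B genes the ratio was 0.888 (0.831 to 0.948), and without ift80 it was 0.966 (0.901 to 1.04).

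Of complex A the rule matched IFT140 and 2 short IDs with IFT43 as their match. IFT140, a core subunit of the retrograde complex, had 253 morphant and 226 control reads (ratio 1.10, 0.918 to 1.32). The IFT43 fragments, of 309 and 249 listed bases, had 10 and 5 reads in the morphant against 13 and 5 in the control, and the shorter lies just inside the 10-read minimum. The sum of these 3 IDs had a ratio of 1.08 (0.906 to 1.29). The rule missed other complex A genes, whose protein match carries another name. ttc21b, the gene of subunit IFT139, had 323 morphant and 636 control reads, 7.47 RPKM against 14.9 RPKM, a log2 ratio of -0.995 that falls just short of the 2-fold call, with an interval of the ratio of 0.436 to 0.573. wdr35 had 375 and 411 reads (ratio 0.898, 0.779 to 1.04) and WDR19 had 279 and 247 (1.11, 0.934 to 1.33). With these 3 genes the complex A sum was 1245 morphant against 1538 control reads (ratio 0.797, 0.739 to 0.859), below 1 where that of the matched IDs spans it. Much of that move came from ttc21b, and the intervals of wdr35 and WDR19 span 1. Of the 6 complex A IDs 2 lay above 0 and 4 below, with a median log2 ratio of -0.08, beside 54.2% of all genes above 0. Those below include both short IFT43 IDs, which had few reads.

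The rule also missed genes of complex B and the BBSome. A search by symbol, added after seeing the data, found 6 more complex B genes and 6 more genes of the BBSome and its partners, all with 10 or more reads. The search was not complete. IFT70A, with 195 morphant and 217 control reads (ratio 0.885, 0.725 to 1.08), and arl6, a further BBS gene, with 196 and 198 (0.975, 0.796 to 1.19), are not in its sums. The complex B gene ift56 had 154 morphant and 242 control reads (ratio 0.627, 0.509 to 0.770), and the other complex B genes of this search, TRAF3IP1, ift22, IFT20, hspb11 and CLUAP1, had intervals that span 1. With them the complex B sum was 2295 morphant against 2550 control reads (ratio 0.886, 0.837 to 0.938). Of the matched and added complex B genes 7 lay above 0 and 8 below, with a median log2 ratio of -0.05. Among all genes 54.2% lay above 0. The 6 genes of the BBSome and its partners, MKKS, lztfl1, ttc8, bbs10, bbip1 and BBS9, all had intervals that span 1, and lztfl1, a regulator of BBSome traffic, was read most, with 432 and 397 reads. With the matched BBS genes their sum was 1375 morphant against 1254 control reads (ratio 1.08, 0.999 to 1.17). Of all 15 further genes, 14 of which had 50 or more reads, 0 were called in either direction at 2-fold. Among all genes of that depth 1.62% were called higher and 0.545% lower. At 1.5-fold 0 were higher and 2, ttc21b and ift56, were lower, beside 6.11% higher and 3.24% lower among all genes of that depth.

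All 6 matched BBS genes lay within 1.5-fold, with log2 ratios between -0.28 and 0.30. All 6 had 50 or more reads, and among all genes of that depth 6.11% were 1.5-fold higher and 3.24% lower. The sum of the 6 genes was 598 morphant against 535 control reads (ratio 1.10, 0.978 to 1.24). The BBSome genes bbs2 and bbs7 were read most: bbs2 had 190 morphant and 158 control reads (ratio 1.18, 0.954 to 1.47) and bbs7 172 and 155 (ratio 1.09, 0.874 to 1.37). BBS1 had the highest ratio (73 morphant and 58 control reads, 1.24, 0.866 to 1.78) and bbs4 the lowest (48 and 58, 0.815, 0.544 to 1.22). bbs5, a BBSome subunit, had 44 and 47. bbs12, which in mammals encodes a chaperonin-like protein that helps assemble the BBSome, had 71 and 59. Every BBS interval spans 1.

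**Figure D4:**
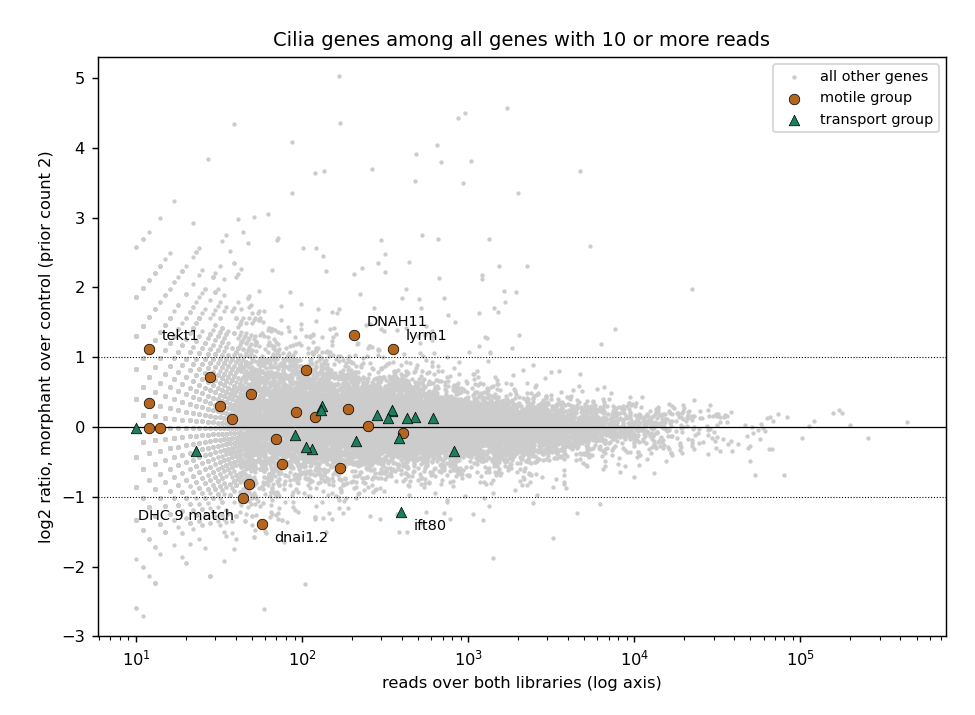
Log2 ratio, morphant over control (y axis, prior count 2), against reads over both libraries (log x axis) for all genes with 10 or more reads (grey), the motile group (circles) and the transport group (triangles); dotted lines mark 2-fold and the 6 called genes are named. The spread of all genes widens towards few reads, where most motile genes lie, and ift80 lies at the lower edge of genes of like depth.

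Motile genes varied more in ratio than transport genes, and they also had fewer reads. The median absolute log2 ratio was 0.41 in the motile group and 0.22 in the transport group, beside 0.22 for all genes. Median reads over both libraries were 63.5 for motile and 305 for transport genes. At 1.5-fold, 5 motile genes were higher and 4 lower, whereas 0 transport genes were higher and 1, ift80, was lower. Among all genes 10.4% were 1.5-fold higher and 6.01% lower, and among those with 10 to 49 reads 24.1% and 14.9%. Of the 10 motile genes in that low class 2 were 1.5-fold higher and 2 lower. Of the 8 with at least 50 but under 200 reads, 1 was higher (RSPH4A) and 2 lower (dnai1.2 and ENSDARG00000077384), beside 13.1% and 5.93% of all genes of that depth. Of the 4 with 200 or more reads, DNAH11 and lyrm1 were higher and 0 lower, beside 3.04% and 2.07%, and ift80 was the 1 lower gene of the 11 transport genes in that class. Across the 40 genes, which share both libraries, Pearson's r between the log2 ratio and the log2 mean RPKM was -0.0706.

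Genes with other roles in cilia are described by 5 lists, leaving out the members above. The lists were matched by symbol with 10 or more reads required. Of 12 transcription factor genes of the cilia programme 6 lay above 0, 3 were at least 1.5-fold higher and 0 lower, with a median log2 ratio of 0.10. All 12 had 50 or more reads, and among all genes of that depth 6.11% were 1.5-fold higher, 3.24% lower and 54.3% above 0. foxj1b, a master regulator of motile cilia, had 225 morphant and 146 control reads (ratio 1.52, 1.23 to 1.88), and its paralog foxj1a 276 and 211 (1.29, 1.07 to 1.55). rfx7a, of the RFX family, had 875 and 448 (1.92, 1.71 to 2.16), whereas rfx2 and rfx3, the members best known from cilia, had 938 and 1005 (0.919) and 221 and 226 (0.963). Intervals wholly below 1 were those of rfx5, with 274 and 348 (0.775, 0.659 to 0.911), and noto, with 96 and 127 (0.744, 0.565 to 0.978). TP73, needed for multiciliated cells in mice, had 57 and 27 (2.08, 1.29 to 3.42) and was the 1 gene past 2-fold. Among all genes with 50 or more reads 1.62% were 2-fold higher and 0.545% lower.

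Of 41 other axonemal and motility genes 27 lay above 0, 9 passed 1.5-fold upward and 2 downward, and 3 passed 2-fold upward and 2 downward, with a median log2 ratio of 0.13. The shares of all genes with 10 or more reads were 10.4% and 6.01% at 1.5-fold, and 3.8% and 1.78% at 2-fold. Counting only the 22 with 50 or more reads, 17 lay above 0, 4 were 1.5-fold higher and 0 lower. Among all genes of that depth 54.3% lay above 0, 6.11% were 1.5-fold higher and 3.24% lower, and 1.62% were 2-fold higher and 0.545% lower. The largest of these were cfap70 with 80 morphant and 42 control reads (ratio 1.88, 1.28 to 2.79), cfap65 with 43 and 25 (1.69, 1.01 to 2.89) and daw1, which helps deliver outer dynein arms, with 41 and 25 (1.61, 0.959 to 2.77). The fourth, ENKUR, a microtubule inner protein, had 72 and 45 (1.58, 1.07 to 2.34). On the other side of 1 lay CFAP298, a dynein assembly gene, with 205 and 262 reads (0.770, 0.639 to 0.928), and the low gene cfap251, a part of the radial spoke base, with 10 and 26 (0.379, 0.163 to 0.812). Like cfap251, every gene of this list past 2-fold, 3 upward and 2 downward, had under 50 reads. Of all genes with 10 to 49 reads 10.8% were called higher and 5.74% lower. The doublet tubulin gene tubb4b had 7319 and 6213 reads (1.16, 1.12 to 1.20), and is not used by cilia alone.

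In the transition zone and ciliary membrane list, whose genes gate entry to the cilium, 18 of 25 genes lay below 0, beside 45.8% of all genes, and the median was -0.08. All 25 had 50 or more reads and 0 passed 2-fold, beside 1.62% higher and 0.545% lower among all genes of that depth. mks1, of the gate's Meckel syndrome module, had 86 morphant and 147 control reads (ratio 0.576, 0.436 to 0.757) and TMEM231, of the same module, 232 and 335 (0.682, 0.574 to 0.809). Basal body genes had a median of -0.04 with 12 of 19 below 0, and the largest ratios at 50 or more reads were those of cep89 (1.23), ttbk2b (1.22) and CEP152 (1.21). ttbk2a, with 26 morphant and 9 control reads, was the 1 gene past 2-fold. Ciliary motors had a median of 0.08 over 10 genes, with 1 past 2-fold (KIF17, 10 morphant and 3 control reads), whose interval of 0.845 to 18.6 spans 1. Both ttbk2a and KIF17 had under 50 reads, and of all genes with 10 to 49 reads 10.8% were called higher and 5.74% lower. The retrograde dynein genes dync2i1 (114 morphant and 79 control reads, ratio 1.42, 1.06 to 1.92) and dync2i2 (20 and 32, ratio 0.615, 0.334 to 1.11) lay on opposite sides of 1. The kinesin gene kif3b had 177 and 144 reads (1.21, 0.966 to 1.52).

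**Figure D5:**
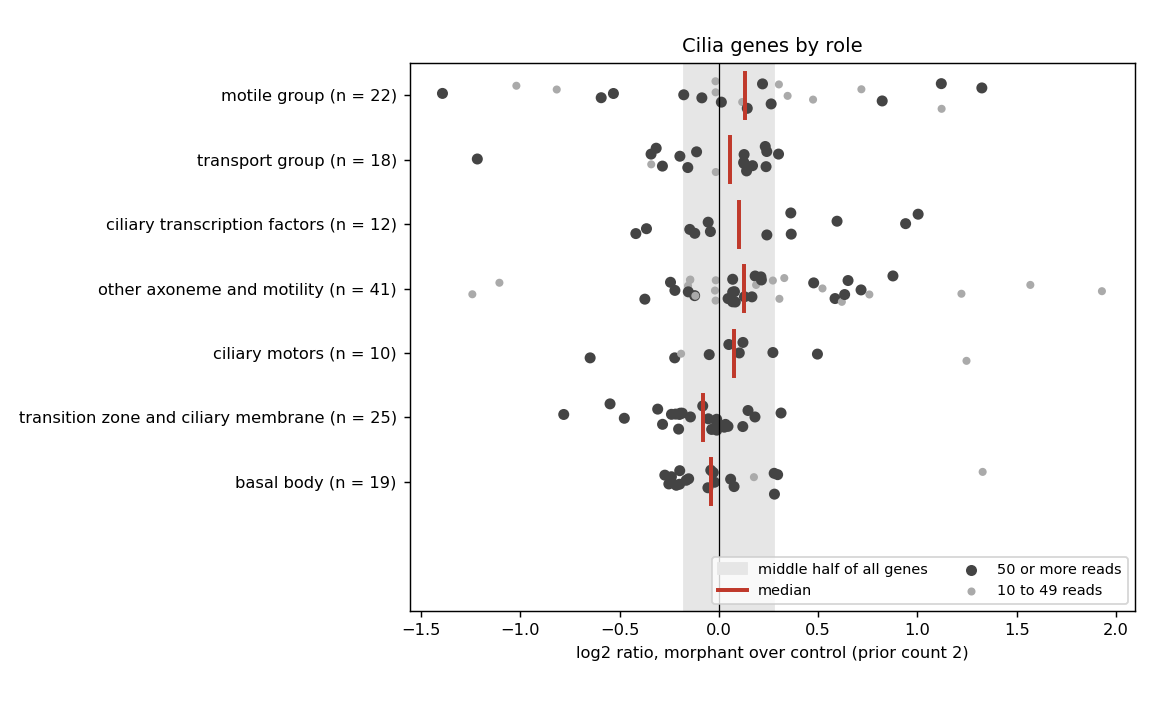
Log2 ratio, morphant over control (x axis, prior count 2), of the motile and transport groups and of 5 lists of other cilia genes; each point is a gene with 10 or more reads, large dark points have 50 or more, red bars are medians and the grey band is the middle 50% of all genes. Medians lie between -0.08 and 0.13, inside the band.

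Of 7 Kupffer's vesicle markers 5 lay below 0, beside 45.8% of all genes, and their summed level was 178.8 CPM in the morphant and 193.3 CPM in the control. Most of that sum was tbxta, also a notochord gene, with 1099 morphant and 1164 control reads, and without it the sum was 699 against 749 reads (ratio 0.919, 0.828 to 1.02). The notochord and vesicle gene noto had 96 morphant and 127 control reads (ratio 0.744, 0.565 to 0.978) and the ion channel gene pkd2 201 and 256 (0.773, 0.639 to 0.933). Of these 7 markers foxj1a had the highest log2 ratio, 0.36. Pronephros markers summed to 185.3 CPM against 197.2 CPM, and 4 of the 8 lay above 0. CDH17 had 221 morphant and 114 control reads (ratio 1.91, 1.52 to 2.41), lhx1a 156 and 258 (0.595, 0.485 to 0.729) and osr1 157 and 226 (0.684, 0.554 to 0.842). Floor plate markers summed to 136.9 CPM against 130.3 CPM, and otic markers to 556.6 CPM against 723.4 CPM. Most of the otic sum was stm, the gene of an otolith matrix protein, with 3301 morphant and 4672 control reads (ratio 0.696, 0.665 to 0.727). Without stm the otic sum was 2295 against 2488 reads (ratio 0.908, 0.858 to 0.962). pax2b with 49 and 77 reads (0.627, 0.429 to 0.908) and dlx4b with 108 and 162 (0.656, 0.510 to 0.842) lay below 1. PAX5 with 62 and 39 (1.57, 1.03 to 2.40) lay above it, and of the 10 otic genes 4 lay above 0 in log2 ratio. Among tissues with fewer or no motile cilia, neural tube markers summed to 606.0 CPM against 763.5 CPM, notochord markers to 293.0 CPM against 232.6 CPM, epidermal markers to 18250 CPM against 16010 CPM and muscle markers to 212.8 CPM against 197.8 CPM. Above 0 lay 0 of 5 neural tube, 4 of 5 notochord, 6 of 7 epidermal and 3 of 4 muscle markers, beside 54.2% of all genes. Every marker of these 8 lists that was matched by symbol had reads in both libraries. The part of tissue makeup in the ratios of the cilia genes was not tested.

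Gene Ontology terms in the authors' table may follow from the same protein match as the rule, since lyrm1 carries both kinds counted here. A cellular component term containing the letters cilium or axonem was attached to 13 of the 22 motile and 12 of the 18 transport genes. The letters were taken anywhere in a term, so stereocilium, a protrusion of hair cells without an axoneme, also counts. A motility process term was attached to 8 motile and 2 transport genes. A further 119 genes with such a component term and 10 or more reads were not members, a set added after seeing the data, and 2 of these were called higher and 2 lower, with a median log2 ratio of 0.06. The shares of all genes called are 3.8% and 1.78%, and ttc21b, described above, belongs to this set. So do genes known from stereocilia, among them MYO15A (called lower) and the clic5b ID ENSDARG00000070584 (called higher). The set is therefore not one of cilia genes alone.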

How the data were processed

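RNA-seq libraries of whole embryos, 1 dnmt1 morphant and 1 control, were used. The authors deposited, per the file headers, a count of unique reads per gene, the coverage of the gene as a fraction of its length, and RPKM, which equals the count divided by listed length and header total. TopHat2, BWA, HTSeq 0.6.1 and MACS2 are named in the submitters' processing notes with no role. No source used here gives the strand setting or the build, so reads of overlapping genes cannot be told apart. Dashes were read as 0, and the 376 rows sharing an ID were summed. No member had several rows.

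Members were assigned to sub-groups by the first matching term. Members, lists and rules were chosen with earlier results of these data known. Symbols came from the Ensembl ID table or, where it gave none or a name in capitals, from RefSeq by the matched protein's accession. Of the 40 members 33 had one. Named are members past 2-fold, the 2 most read and the highest and lowest of each sub-group, and up to 3 genes per list. ENKUR, CFAP298, cfap251, KIF17, rfx2, rfx3, rfx5, tubb4b, ttbk2a, tbxta, stm, dnai2b, DNAH10, DNAAF11, IFT70A, arl6, MYO15A and clic5b were chosen after their values were seen. So were the further transport subunits and the members given beyond that rule. CPM used total reads. The even covered share was 1 minus the exponential of minus 49 × reads / length. The 49 bases held for every gene with 1 read, within 0.5 base plus the rounding of the deposited share. Alternatives were TMM (edgeR 4.0.16), median-of-ratios (DESeq2 1.42.0), other minimums, priors and folds. A few single genes that enter the counts and sums are not reported by name here or in the plots by gene. The steps were tested on simulated data. A planned search for RFX and forkhead motifs in promoters was not done, since no promoter sequence was used here. Other software was matplotlib 3.10.9, SciPy 1.17.1, pandas 2.3.3 and numpy 2.4.6 under Python 3.11.15, and R 4.3.3.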

Additional observations from a re-analysis of the deposited data

How the results depend on the processing

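Under TMM scaling, median-of-ratios scaling, a prior count of 0.5, a minimum of 50 reads, no minimum and members limited to known cilia symbols, 2 or 3 genes were called higher and 2 to 4 lower. TMM scaling shifted the median of all genes by -0.03 on the log2 scale. With a 1.5-fold rule 5 of the 40 genes were higher and 5 lower, beside 10.4% and 6.01% of all genes with 10 or more reads. With a 4-fold rule 0 were higher and 0 lower, a count that cannot be read further without a share of all genes at 4-fold. On the deposited RPKM with a pseudocount of 1 the counts were 0 higher and 1 lower, a pseudocount above the level of most motile genes. The summed ratio without lyrm1 was 1.06 for the motile group, without ift80 it was 1.01 for the transport group, and with the 15 further subunits of the transport machinery it was 0.906, alternatives added after seeing the data. With those subunits the median log2 ratio of the transport group was 0.10. The difference of group medians was between -0.05 and 0.08 over all settings, below 0 with a minimum of 50 reads and on RPKM (-0.02). No paired analysis was possible because each RNA group has 1 library and the peak lists were not used. Depth limits most motile genes, which had under 100 reads over both libraries.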
